A study of Homo sapiens with 22 samples.

Results

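The ZNF genes of chromosome 19 were followed through a bromouridine (BrU) pulse-chase in HEK293T cells, a human embryonic kidney cell line. All protein-coding genes of chromosome 19 whose symbol was ZNF, a number and at most 1 letter were taken, which gave 246 genes. For each gene the protein_coding transcript with the highest mean count over the libraries of 0 to 10 h was kept. Of these, 143 genes had a mean of at least 1 CPM (the read count scaled to the size of the library) and are described here. They stood beside 189 ZNF genes on other chromosomes and 10731 coding genes at the same limit. ZNF57 at 1.01 CPM and ZNF470 at 1.03 CPM lay just inside the limit, and ZNF606 at 0.993 CPM and ZNF813 at 0.972 CPM just outside it.

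The cells expressed either a control shRNA (shControl) or an shRNA against ZNF598 (shZNF598). The sources used here do not say whether these were clones or pools. All cells were labelled with 150 µM BrU for 24 h, washed, and then kept in BrU-free medium. The chase lasted 0, 2, 4, 6 or 10 h, with a further time at 24 h. BrU-containing RNA was then immunoprecipitated and sequenced (BRIC-Seq). There were 22 libraries, with 2 per shRNA at each time from 0 to 10 h and 1 per shRNA at 24 h. The total count ranged from 52352359 to 96963584 in the 20 libraries of 0 to 10 h, and was 21220829 and 40157613 at 24 h. The median count of the 143 genes was 58 to 305 per library up to 10 h. VIM, KRT8, KRT18 and LIN28B were present at 130, 13.5, 12.3 and 28 CPM, whereas the blood, liver, pancreas and red cell markers PTPRC, ALB, CD3E, INS and HBB were at 0 to 0.00624 CPM. The kidney developmental gene PAX2 was at 0.0415 CPM.

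C2H2 zinc finger proteins hold arrays of short repeated units, each folded around a zinc ion by a pair of cysteines and a pair of histidines. Many of those encoded on human chromosome 19 also carry a KRAB domain, which recruits TRIM28 (KAP1) and, through it, the histone methyltransferase SETDB1 and HP1 proteins to the DNA that the fingers bind. The genes lie in clusters that grew by tandem duplication, and many members silence retrotransposons. ZNF598 is an E3 ubiquitin ligase that marks ribosomes after they have collided on an mRNA. The comparison of shZNF598 with shControl asks whether labelled mRNAs of this family were lost at another rate or stood at another level when ZNF598 was reduced.

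The family's repeated unit is visible in the coding sequence. For each gene the first unit of 84 bases with the spacing of a canonical finger and the residues that follow it was read from the GENCODE release 44 annotation on hg38. The capitals mark the codons of the zinc-binding cysteines and histidines. ZNF100, which the study examined further, is shown over 3 consecutive units of its last exon, on the minus strand at chr19:21727442-21727693:
ZNF100: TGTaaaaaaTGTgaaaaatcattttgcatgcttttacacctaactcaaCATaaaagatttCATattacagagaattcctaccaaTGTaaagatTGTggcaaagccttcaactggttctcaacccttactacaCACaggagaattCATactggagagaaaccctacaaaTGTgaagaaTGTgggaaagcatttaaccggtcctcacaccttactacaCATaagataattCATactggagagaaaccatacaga

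Units 2 and 3 of this stretch were identical at 83.3% of bases, and unit 1 was identical to them at 65.5% and 67.9%. The next 4 sequences are the first units of the genes on which the results below turn. ZNF627 (plus strand, chr19:11617008-11617091) showed the largest early fall, ZNF525 (plus strand, chr19:53381312-53381395) the largest late rise, ZNF91 (minus strand, chr19:23362262-23362345) the largest decrease in level in shZNF598 cells, and ZNF616 (minus strand, chr19:52116522-52116605) the largest increase.
ZNF627: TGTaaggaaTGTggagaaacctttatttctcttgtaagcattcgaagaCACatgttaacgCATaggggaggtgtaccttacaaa
ZNF525: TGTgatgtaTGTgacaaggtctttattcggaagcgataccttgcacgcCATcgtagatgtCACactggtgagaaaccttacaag
ZNF91: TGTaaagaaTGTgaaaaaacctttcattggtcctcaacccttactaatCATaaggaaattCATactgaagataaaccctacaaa
ZNF616: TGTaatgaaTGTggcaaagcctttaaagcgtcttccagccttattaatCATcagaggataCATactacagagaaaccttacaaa

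Such a unit was found in 137 of the 143 genes. Its second cysteine was written TGT in 90.5% of them, its first cysteine in 68.6%. Over all 9316 pairs of genes the median identity of the first units was 54.8%, and the highest was 100%. The transcripts were therefore compared for uniqueness. The median gene had 96.8% of its 50-base windows at no other site of the genome, the lowest had 63.7%, and 23 genes were under 90%. In addition, 31 genes had more than 10% of their exon bases inside exons of another gene. The 96 genes with at least 90% unique windows and at most 10% overlap are given beside the main counts.

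ZNF598 itself was measured first. At 0 h it stood at 6.79 and 8.32 CPM in the shControl libraries and at 0.746 and 1.04 CPM in the shZNF598 libraries. The groups did not overlap at any time up to 10 h. Averaged over 0 to 10 h, ZNF598 was lower in shZNF598 cells by 3.05 log2 units (SE 0.0868, adjusted p = 1.17e-18, edgeR). In the single 24 h libraries it was at 4.80 CPM with the control shRNA and 2.36 CPM with the ZNF598 shRNA.

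The labelled mRNAs of the chromosome 19 ZNF genes fell steeply over the first 4 h of the chase. The median CPM of the 143 genes was 4.19 and 3.83 in the shControl libraries at 0 h, 2.28 and 2.48 at 2 h, and 1.32 and 1.39 at 4 h. In the shZNF598 libraries it was 4.11 and 4.03 at 0 h, 2.44 and 2.43 at 2 h, and 1.32 and 1.33 at 4 h. All 4 libraries at 4 h thus lay below all 4 at 0 h. The median of all coding genes went from 8.35 and 8.16 to 6.67 and 6.77 CPM in shControl cells over the same hours.

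From 0 to 4 h in shControl cells, 139 of the 143 genes fell and 1 rose (edgeR, adjusted p below 0.05), against 22.8% of all 79513 transcripts lower and 18.7% higher. The median change was -1.58 on the log2 scale, against 0.03 over all transcripts and -0.09 over coding genes. In shZNF598 cells 135 fell and none rose, against 23.4% of all transcripts lower and 16.5% higher, with a median of -1.64. All 135 were also among the 139 of shControl cells. The sharing of calls over all transcripts is not given here. The estimates of the 2 shRNAs ran together over the 143 genes, with Pearson's r = 0.949 and Spearman's rho = 0.94. The estimates come from separate libraries but from the same transcripts. Among the 96 genes with unique sequence and little overlap, 93 fell in shControl cells and 90 in shZNF598 cells, with medians of -1.65 and -1.71.

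A gene could pass the limit of 1 CPM through its 0 h libraries, which favours falling genes. When no limit was set, the 243 of the 246 genes with any count were fitted, and 190 fell and 1 rose in shControl cells, against 13.4% and 12.6% of all transcripts, with a median of -1.401. When the limit was placed on the 10 h libraries alone, 98 genes remained and 94 of them fell, against 20.9% of all transcripts, with a median of -1.58. In shZNF598 cells 92 of the 98 fell, against 21.4% of all transcripts, with a median of -1.62. Both of these filters were added after the data had been seen.

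**Figure D1:**
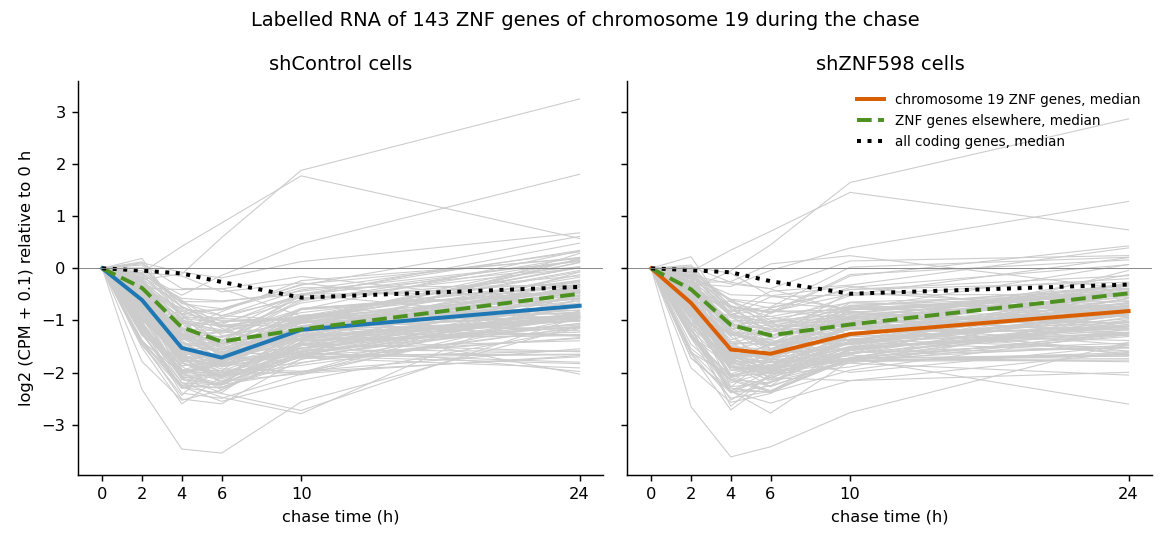
Log2 (CPM + 0.1) relative to 0 h of the same shRNA (vertical axis) against chase time in h (horizontal axis), in shControl cells on the left and shZNF598 cells on the right. Grey lines are the 143 genes, the coloured line their median, the dashed green line the median of 189 ZNF genes on other chromosomes and the dotted black line the median of all 10731 coding genes. The 143 genes reached a median of -1.53 at 4 h in shControl cells and -1.56 in shZNF598 cells, while coding genes stood at -0.10 and -0.08.

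ZNF627, a finger gene with the KRAB motif at chr19:11597483-11619161 on the plus strand, showed the steepest loss. It stood at 5.68 and 6.26 CPM at 0 h in shControl cells, at 1.03 and 1.19 at 2 h, and at 0.515 and 0.383 at 4 h. In shZNF598 cells it went from 6.29 and 6.83 at 0 h to 0.407 and 0.478 at 4 h. The 0 h and 4 h libraries did not overlap with either shRNA. The log2 change was -3.71 (SE 0.191, adjusted p = 7.74e-13, edgeR) in shControl and -3.91 in shZNF598 cells.

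ZNF823, in the same cluster of genes, went from 2.87 and 2.23 CPM to 0.478 and 0.33 CPM between 0 and 4 h in shControl cells. ZNF574 went from 5.08 and 5.88 to 0.742 and 1.02 CPM. ZNF473, a protein of histone pre-mRNA processing, went from 10.2 and 9.34 to 2.63 and 3.06 CPM. In each of these the 4 h libraries lay below the 0 h libraries. Among the most abundant genes the loss varied. The most abundant member per kilobase of transcript was ZNF146 (7.14 CPM per kilobase), whose protein consists almost wholly of fingers. It stood at 34.2 and 26.4 CPM at 0 h and 15.1 and 17.2 CPM at 4 h in shControl cells, a log2 change of -0.90 (SE 0.128). Per kilobase, ZNF428 (6.41), ZNF460 (4.42), ZNF317 (2.63) and ZNF121 (2.35) came next in level. ZNF460 changed by -0.60 log2 units, from 26.6 and 21.2 CPM to 15.7 and 15.5 CPM, and ZNF121 by -1.15. ZNF317 changed by -1.82, more than the family median, from 19.7 and 19.6 CPM to 5.35 and 5.67 CPM.

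The genes that did not fall were few. ZNF738, ZNF780B and ZNF525 did not pass the test in shControl cells, with log2 changes of -0.15, -0.07 and -0.11, and did not pass it in shZNF598 cells. ZNF358, ZNF577, ZNF714, ZNF493 and ZNF428 also missed the threshold in shZNF598 cells. ZNF428, a short gene with 1 finger and no KRAB motif, was the gene that rose in shControl cells. It is not among the 96 genes with unique sequence and little overlap, of which 0 rose. It stood at 3.71 and 5.31 CPM at 0 h and 6.4 and 5.73 CPM at 4 h, a log2 change of 0.44 (SE 0.165, adjusted p = 0.0353, edgeR). In shZNF598 cells the change was 0.34 with an adjusted p of 0.0982.

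**Figure D2:**
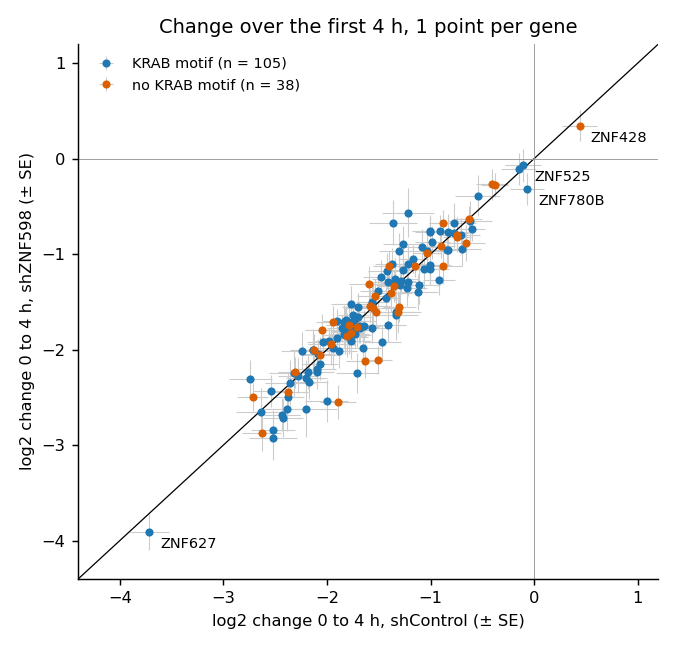
Log2 change from 0 to 4 h in shControl cells (horizontal axis) and in shZNF598 cells (vertical axis), 1 point per gene with SE bars from edgeR, coloured by the KRAB motif. The diagonal marks equal change. The points run along it from ZNF627 at -3.71 and -3.91 to ZNF428 at 0.44 and 0.34.

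Between 4 and 10 h the family no longer fell relative to the bulk of transcripts. With TMM scaling, which sets the bulk of transcripts level between libraries, 54 of the 143 genes rose and 11 fell in shControl cells, against 30.9% of all transcripts higher and 34.0% lower. In shZNF598 cells 61 rose and 7 fell, against 30.5% and 31.0%. The median log2 changes were 0.32 and 0.37, against -0.06 and -0.02 over all transcripts. This direction depended on the scaling. With library totals alone, 12 genes rose and 46 fell in shControl cells and 18 rose and 38 fell in shZNF598 cells, with medians of -0.25 and -0.14, while the medians of all transcripts moved to -0.63 and -0.54. Under both scalings the family's median thus lay above that of all transcripts. The shares of all transcripts called with library totals alone are not given here, so those counts have no background. The TMM factors went from 1.13 to 1.18 at 0 h down to 0.741 to 0.78 at 10 h, and no spike-in count was used, so a change in absolute amount is not given by these values.

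With TMM scaling, 47 genes rose from 4 to 10 h with both shRNAs. They made up 87.0% of those that rose in shControl cells and 77.1% of those that rose in shZNF598 cells. The share of all transcripts that rose with both is not given here, so this sharing has no background. The largest rise was that of ZNF525, which has the KRAB motif and lies at chr19:53365705-53386590 on the plus strand. It was at 2.61 and 2.96 CPM at 4 h, 4.32 and 4.84 at 6 h, 11.7 and 11 at 10 h and 29.5 at 24 h in shControl cells. In shZNF598 cells it was at 3.01 and 3.71 CPM at 4 h, 13.0 and 9.2 at 10 h and 26.0 at 24 h. All 10 h libraries exceeded all 4 h libraries. The log2 change from 4 to 10 h was 2.04 (SE 0.169, adjusted p = 2.62e-10, edgeR) in shControl and 1.78 in shZNF598 cells. ZNF428 reached 16.6 and 14.7 CPM at 10 h in shControl cells, a change of 1.39 from 4 h, and was at 6.75 CPM at 24 h. ZNF627, the fastest faller, rose again by 1.07 log2 units, to 1.12 and 0.735 CPM at 10 h. ZNF460 was an exception in both cell populations, at 10.5 and 8.59 CPM at 10 h in shControl cells, a change of -0.70 (adjusted p = 6.46e-05, edgeR).

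At 24 h, with 1 library per shRNA and no test, 116 of the 143 genes lay above both 10 h libraries in shControl cells and 106 in shZNF598 cells. Most were still below where they began, as 115 genes in shControl cells and 132 in shZNF598 cells lay below both 0 h libraries. The median CPM of the family was 2.68 in shControl and 2.30 in shZNF598 cells. The counts above were not made over all transcripts, and the rise was not particular to the family. Relative to 0 h, the family's median log2 (CPM + 0.1) went from -1.18 at 10 h to -0.72 at 24 h in shControl cells. That of coding genes went from -0.56 to -0.36. In shZNF598 cells the family went from -1.26 to -0.82 and coding genes from -0.49 to -0.31. The 24 h libraries were the shallowest, with median counts of 48 and 82 for the 143 genes.

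A straight line over 0 to 10 h described this course poorly, since the fall was followed by a plateau. In the planned slope test, 107 genes had a negative and 2 a positive slope in shControl cells, against 40.8% and 33.5% of all transcripts. In shZNF598 cells 106 were negative and 2 positive, against 38.5% and 32.7%. The median slopes were -0.13 log2 units per hour with both shRNAs. ZNF57, ZNF555, ZNF627, ZNF254 and ZNF823 had the lowest slopes in shControl cells, from -0.34 in ZNF57 to -0.24 in ZNF823. For ZNF57, 81.0% of exon bases lie in an exon of a gene on the other strand. ZNF428 and ZNF525 had the highest slopes, at 0.20 and 0.21. Of the genes with a negative slope, 99 were shared between the shRNAs, a count not given here for all transcripts.

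Apparent half-lives, relative to the bulk of transcripts, could be set by the study's rule for 119 of the 143 genes with both shRNAs. Their median was 2.40 h (quartiles 1.99 to 3.21 h) in shControl and 2.35 h (2.02 to 3.30 h) in shZNF598 cells. For 60 of the 119 the half-life was longer in shZNF598 cells, against 1824 of 3183 coding genes and 8349 of 14990 transcripts. The best line ended at 4 h for 94 genes in shControl and 102 in shZNF598 cells. Coding genes with a half-life, 3183 of 10731, had medians of 3.98 and 4.12 h, so that most coding genes did not enter this comparison. ZNF627 had 1.08 and 1.04 h, ZNF823 1.53 and 1.54 h, and ZNF100 2.76 and 3.48 h, in shControl and shZNF598 cells respectively. When the line was fixed to 0 to 10 h, 1 of the 143 genes kept a half-life.

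The family shares sequence features that are not independent of how it was chosen, since the ZNF symbol is given to zinc finger genes. The coding sequence of the transcripts held a median of 12 finger matches, with 131 genes at 6 or more. ZNF91 had the most, with 31. ZNF226 was named among 5 genes without a match. Their counted transcripts had a median coding length of 351 bases, against 1725 in all 143 genes. The KRAB motif was found in 105 genes (73.4%), against 29.1% of the ZNF genes elsewhere. The median share of G or C at the last position of codons was 40.2%. It was 50.2% in the ZNF genes elsewhere and 57.4% in coding genes other than ZNF genes.

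These features graded the early fall only weakly within the family. Over 0 to 4 h in shControl cells, the median log2 change was -0.84 in the 5 genes with no finger match, -1.31 in 7 genes with 1 to 5, -1.70 in 38 with 6 to 10, -1.67 in 58 with 11 to 15, and -1.65 in 35 with more. Across the 143 genes the change and the number of fingers had r = -0.187 and rho = -0.146. Mean CPM had r = 0.265, but it includes the 0 and 4 h libraries that give the change and is not independent of it. The length of the untranslated region after the stop codon had r = 0.047. The density of ATTTA motifs in that region had r = 0.153 (141 genes), and the GC share of last codon positions r = 0.083. Genes with the KRAB motif had a median of -1.68 and the 38 without it -1.53. The genes are not independent, since neighbours share sequence and origin.

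The same split was made outside the family. Coding genes with no finger match, 10199 in number, had a median of -0.06. Coding genes of other names had medians of -0.95 with 1 to 5 fingers (129 genes), -1.48 with 6 to 10 (51 genes), -1.15 with 11 to 15 (17 genes) and -1.22 with more (3 genes). Of the 51 with 6 to 10 fingers, 49 fell. ZNF genes on other chromosomes had a median of -1.14, with 163 of 189 falling. Their median was -0.78 with no finger match (15 genes), -1.06 with 1 to 5 (59 genes), -1.29 with 6 to 10 (56 genes), -1.63 with 11 to 15 (37 genes) and -1.22 with more (22 genes). From 4 to 10 h, 64 of the 189 rose and 36 fell in shControl cells with TMM scaling.

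**Figure D3:**
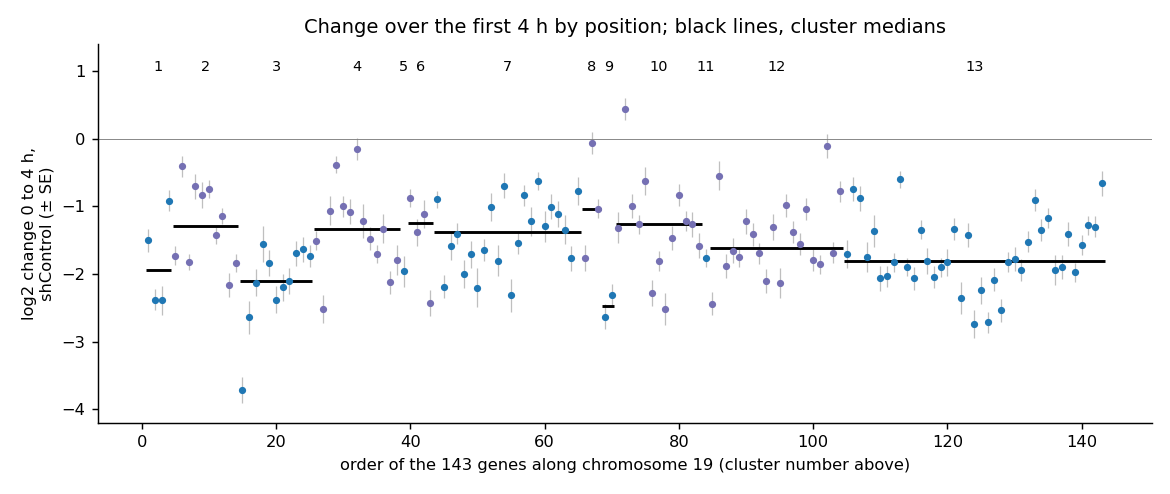
Log2 change from 0 to 4 h in shControl cells with SE bars (vertical axis) for the 143 genes in their order along chromosome 19 (horizontal axis), with cluster numbers above and colours alternating between clusters. Black lines are cluster medians, which lie between -1.03 in cluster 8 and -2.47 in cluster 9.

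Along the chromosome the genes fell into 13 clusters, split wherever neighbours among all 246 ZNF genes of the chromosome started more than 1 Mb apart. Expressed genes of a cluster can therefore lie farther apart than that. The largest was cluster 13, with 39 genes from ZNF581 to ZNF446 near the end of the long arm (55.6 to 58.5 Mb). All 39 fell from 0 to 4 h with both shRNAs, with a median of -1.81 in shControl cells. Cluster 3, with 11 genes from ZNF627 to ZNF791 at 11.6 to 12.6 Mb, had a median of -2.10, and all 11 fell. Cluster 7, with 22 genes at 36.2 to 37.8 Mb, had -1.38 and cluster 12, with 20 genes at 51.6 to 53.5 Mb, -1.61. Clusters 2 and 10, with 10 and 13 genes, had -1.29 and -1.27, and clusters 5 and 11, with the single genes ZNF507 and ZNF473, -1.96 and -1.77. Cluster 4, with 13 genes from ZNF101 to ZNF254 at 19.7 to 24.1 Mb, had -1.33. The ranges of the clusters overlapped widely, from -2.74 to -0.60 in cluster 13 and from -2.52 to -0.15 in cluster 4. Cluster medians are descriptions and were not tested against each other.

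The reduction of ZNF598 was not accompanied by a change in decay that passed the test. For the difference in slope, 0 of the 143 genes were called, against 0.116% of all transcripts, and 0 had an unadjusted p below 0.05, against 5.53% of all transcripts. DESeq2 also called 0. The median difference was 0.0026 log2 units per hour. A straight line described the family's course poorly, and that misfit enters the spread used by the slope test. The slope counts therefore do not show that the slopes were equal. The difference in the 0 to 4 h change gave 0 calls (background 0.0126%), and that in the 4 to 10 h change 0 calls (0.0868%). For 0 to 4 h, 3 genes had an unadjusted p below 0.05 (2.10%, against 2.13% of all transcripts). For 4 to 10 h there were 8 such genes (5.59%, against 7.34%). DESeq2 called 0 in each. The lowest p of both differences was that of ZNF101, which changed over 0 to 4 h by -1.51 with the control shRNA and by -2.11 with the ZNF598 shRNA. These differed by -0.60 (SE 0.202, adjusted p = 1, edgeR). For ZNF100 the difference over 0 to 4 h was 0.24 (SE 0.237).

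Levels differed for some members. At 0 h 1 of the 143 genes was called, against 0.407% of all transcripts. An unadjusted p below 0.05 was found for 13 genes (9.09%), against 10.1% of all transcripts. Averaged over the 20 libraries of 0 to 10 h, 14 genes were higher and 8 lower in shZNF598 cells, against 12.3% and 10.1% of all transcripts. At this limit of 1 CPM neither share in the family, 9.79% higher and 5.59% lower, was above the background. The median log2 difference was 0.06, against 0.02 over all transcripts, and 93 of 143 genes (65.0%) were above 0, against 55.5% of all transcripts and 56.8% of coding genes. The ZNF genes on other chromosomes had 43 higher and 6 lower of 189, with a median of 0.10. When no limit was set on level, 13 of 243 family genes were higher (5.35%, against 6.29% of all transcripts). Of the 243, 22 were lower (9.05%, against 5.30%), so that the lower share then lay above the background. That background held 183249 transcripts, against 79513 at the limit of 1 CPM, where 10.1% were lower. Whether the added transcripts of low count made this difference was not tested. With library totals alone 10 of the 143 were higher and 8 lower, and without shControl 0 h replicate 2 the counts were 12 higher and 15 lower. The shares of all transcripts in these last settings are not given here.

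**Figure D4:**
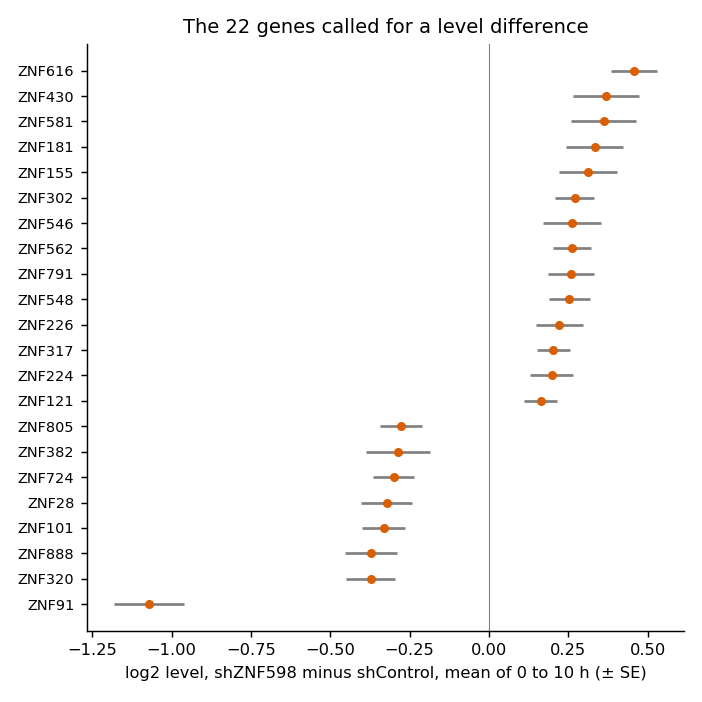
Log2 difference in level, shZNF598 minus shControl, averaged over 0 to 10 h with SE bars from edgeR (horizontal axis), for the 22 genes with an adjusted p below 0.05. The 14 higher genes lie between 0.16 (ZNF121) and 0.46 (ZNF616), and 7 of the 8 lower genes between -0.37 and -0.28, with ZNF91 apart at -1.07.

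ZNF91, whose protein binds and silences SVA retrotransposons, differed most. At 0 h it stood at 4.01 and 2.79 CPM in shControl and 1.52 and 1.62 CPM in shZNF598 cells. At 2 h the values were 2.60 and 2.48 against 0.837 and 1.39, at 4 h 1.28 and 1.4 against 0.60 and 0.398, at 6 h 1.16 and 0.889 against 0.665 and 0.459, and at 10 h 1.73 and 2.15 against 1.2 and 1.03. The shControl libraries were above the shZNF598 libraries at each of the 5 times. The mean difference was -1.07 (SE 0.110, adjusted p = 1.18e-07, edgeR) and stayed between -1.15 and -1.01 over all alternatives run. At 0 h alone the difference was -1.10 (SE 0.215, adjusted p = 0.0139, edgeR). That call rested on single libraries, since without shControl 0 h replicate 1 it was -0.82 with an adjusted p of 0.0919, and it was lost without either shZNF598 0 h library and with the 0 h libraries fitted alone (adjusted p = 0.466, edgeR). In ZNF91 78.5% of windows were unique.

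Of the other lower genes, ZNF320, ZNF888 and ZNF28, in cluster 12, had differences of -0.37, -0.37 and -0.32, and ZNF101 and ZNF724, in cluster 4 with ZNF91, -0.33 and -0.30. Each of these clusters also held 1 gene that was higher. ZNF888, ZNF28 and ZNF724 were named after their values were seen, and position was not tested. ZNF320 was at 4.61 and 3.83 CPM at 0 h in shControl and 3.03 and 3.23 in shZNF598 cells, and at 2.54 and 2.05 against 1.51 and 2.24 CPM at 10 h. The groups thus overlapped at 10 h but not at 0 h. ZNF724 shares 53.2% of its exon bases with another gene on the same strand, and 78.7% of the windows of ZNF888 were unique.

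ZNF616, in cluster 12 as well, was the most increased gene. It was at 6.11 and 5.51 CPM in shControl and 7.19 and 7.22 CPM in shZNF598 cells at 0 h, and at 1.36 and 1.39 against 2.06 and 2.03 CPM at 10 h. At 6 h the values were 1.65 and 1.09 against 2.02 and 1.63 CPM, so that the groups overlapped there. The mean difference was 0.46 (SE 0.0736, adjusted p = 7.76e-05, edgeR). In the 24 h libraries the order was the opposite, 4.18 CPM with the control shRNA and 2.98 CPM with the ZNF598 shRNA. ZNF302 and ZNF562 were higher by 0.27 and 0.26, with adjusted p-values of 0.00246 and 0.00334 (edgeR). In ZNF562, 52.0% of exon bases lie in an exon on the other strand. ZNF100 was at 4.93 and 3.83 CPM in shControl and 3.41 and 3.33 CPM in shZNF598 cells at 0 h, and its mean difference of -0.21 did not pass the threshold (adjusted p = 0.066, edgeR). Its adjusted p did pass in 4 of the alternatives run, among them the fit with 1 transcript per gene.

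**Figure D5:**
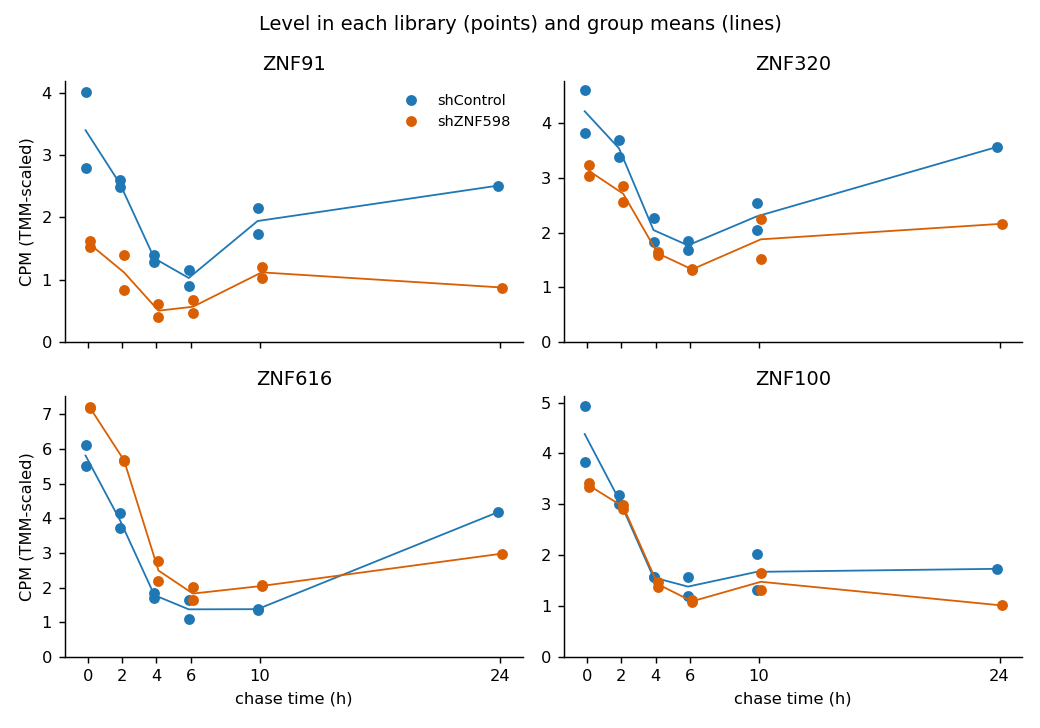
TMM-scaled CPM (vertical axis, from 0) against chase time in h (horizontal axis) for ZNF91, ZNF320, ZNF616 and ZNF100. Points are single libraries, 2 per shRNA up to 10 h and 1 at 24 h, and lines join the group means. ZNF91 was lower in shZNF598 cells at each time up to 10 h, whereas ZNF100 overlapped between the shRNAs at 10 h and stood at 1.73 and 1.01 CPM in the single shControl and shZNF598 libraries of 24 h.

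The genes whose products work with KRAB zinc fingers did not share the family's course. Of 17 such genes, 5 rose (29.4%) and 3 fell (17.6%) from 0 to 4 h in shControl cells. Over all transcripts 18.7% were higher and 22.8% lower. HDAC1, a histone deacetylase, rose by 0.55 log2 units, and CHD3 and CHD4, the remodelling ATPases of the NuRD complex, by 0.46 and 0.47. Of those that fell, ATF7IP, a SETDB1 partner, did so by 0.83 and SETDB1 by 0.26. TRIM28, the KRAB corepressor, changed by 0.16 (SE 0.105) and did not pass the test. In mean level over 0 to 10 h, 2 of the 17 were higher and 2 lower in shZNF598 cells (11.8% each). These shares were near those of all transcripts, 12.3% and 10.1%. TASOR, a subunit of the HUSH silencing complex, was higher by 0.42 (adjusted p = 4.78e-05, edgeR) and UHRF1 by 0.13. CBX1 and CBX3, which encode HP1 proteins, were lower by 0.22 and 0.14. TRIM28 differed by 0.02 (SE 0.0468, adjusted p = 0.774, edgeR). In these bulk samples fewer cells that express a gene and less RNA per cell cannot be told apart.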

How the data were processed

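Per the study's methods, the authors trimmed reads with fastp, removed noncoding RNA reads with STAR 2.7.0a, aligned the rest to hg38 with GENCODE release 32 and obtained transcript counts with featureCounts. What they deposited is an unscaled count per transcript and library. The strand setting of the counting is not given in the sources used here. Replicates carry only a number, so p-values measure the spread between libraries, which may be technical. Groups came from the sample titles.

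Transcripts were named with GENCODE release 44 (132 of the 143 genes matched with their version). Counts were fitted with edgeR 4.0.16 (TMM, mean of at least 1 CPM over 20 libraries, quasi-likelihood test, Benjamini-Hochberg adjustment over 79513 transcripts, threshold 0.05) in R 4.3.3. A slope per shRNA and 1 mean per group were fitted. Contrasts of 4 h with 0 h and 10 h with 4 h were added after the data were seen. For half-lives the study's choice of the best window was repeated on DESeq2 1.42.0 fold changes, without spike-ins, at R² above 0.9. CPM are TMM-scaled. The functions were tested on simulated data. Fingers and the KRAB motif were searched in the translated GENCODE coding sequence. Named genes were ZNF598, ZNF100 and the extremes of slope, level, fingers, clusters and shRNA differences, and others were named after their values were seen. The genes and lists were chosen with earlier results of these data known.

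Pairing of the replicate numbers was examined by correlation, without a test. Over 45 pairs of groups the correlation of same-numbered deviations ran from -0.342 to 0.504. The replicates were taken as numbers only, and whether same-numbered libraries share a batch was not tested. Alternatives were other scaling, filters, windows, tools, 1 transcript per gene and leaving libraries out. The 24 h libraries entered only descriptions, half-lives and the 0 to 24 h window. The values of 1 gene that works with KRAB zinc fingers are not reported here.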

Additional observations from a re-analysis of the deposited data

How the results depend on the processing

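Under all alternatives that tested the 143 genes, 132 to 140 of them were called for the 0 to 4 h change with each shRNA, and no difference in slope, 0 to 4 h change or 4 to 10 h change between the shRNAs was called under any alternative run. Values depend on scaling, since no spike-in count was used, and on depth, since a median gene had as few as 58 counts in a library up to 10 h. The cause of each shift below was not tested. Counts of calls below stand without the share of all transcripts called under the same alternative.

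With RLE size factors the median 0 to 4 h change in shZNF598 cells was -1.59, the 4 to 10 h medians were 0.42 (79 calls, 74 higher and 5 lower) in shControl and 0.43 in shZNF598 cells, the median slopes -0.12 and -0.12, their median difference 0.0001, and the ZNF358 slope 0.0057 in place of -0.0061. With library totals alone the 0 to 4 h median in shZNF598 cells was -1.70, the 4 to 10 h medians -0.25 and -0.14, the median slopes -0.20 and -0.19 (142 and 139 calls), their difference 0.01, and the slopes of ZNF577 and ZNF780B -0.0135 and -0.0621. With the DESeq2 Wald test the 4 to 10 h median in shControl cells was 0.42, the median slopes -0.11 and -0.12, their difference 0.0000 and the ZNF358 slope 0.0055. With 1 transcript per gene the 0 to 4 h median in shZNF598 cells was -1.58, the median slopes -0.12 and -0.12, their difference 0.0009 and the ZNF358 slope 0.0019.

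With no filter on level the 0 to 4 h median of the 143 genes in shZNF598 cells was -1.54, the 4 to 10 h median there 0.31 and the median slope difference 0.0004. With the limit of 1 CPM placed on the 10 h libraries the 4 to 10 h medians were 0.24 and 0.27. A minimum of 5 CPM left 22 genes to test. It called 21 genes for the 0 to 4 h change with each shRNA, 10 and 9 for the 4 to 10 h change in shControl and shZNF598 cells, 21 and 19 for the slopes, 5 for the mean level and 0 for the 0 h level. Its medians were -1.45 for 0 to 4 h in shZNF598 cells, 0.15 and 0.067 for 4 to 10 h, -0.0717 for the difference of the latter, -0.16 and -0.17 for the slopes and 0.0009 for their difference. With the 0 h libraries fitted alone 0 genes were called for the 0 h level.

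The slopes depended on the window. Over 0 to 4 h the median slopes were -0.40 and -0.41 and their difference 0.0063, over 0 to 6 h -0.32, -0.30 and 0.0148, and over 0 to 24 h -0.0272, -0.0301 and -0.0067, with 14 and 17 calls over 0 to 24 h. The slope difference changed sign in ZNF383 (0.0298 over 0 to 4 h, 0.006 over 0 to 6 h), ZNF57 (-0.0737, -0.0674 and -0.0181 over 0 to 4, 6 and 24 h), ZNF221 (0.0189), ZNF708 (-0.0282) and ZNF100 (-0.0163), the last 3 over 0 to 24 h. The slope in shControl cells changed sign over 0 to 4 h in ZNF525 (-0.0372), ZNF577 (-0.1452) and ZNF780B (-0.0273), over 0 to 6 h in ZNF577 (-0.0464) and ZNF780B (-0.0372), and over 0 to 24 h in ZNF302 (0.0116), ZNF446 (0.0071), ZNF546 (0.0127), ZNF700 (0.0018) and ZNF790 (0.0113). The median half-lives were 2.55 and 2.44 h with R² above 0.8, and 6.13 and 7.31 h for the 1 gene left with the window fixed to 0 to 10 h.

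When libraries were left out, the slope calls ran from 48 to 121 in shControl and 46 to 116 in shZNF598 cells. The lowest values were those without replicate 1 or without replicate 2 of all groups. The median slopes ran from -0.17 to -0.11 in both and their difference from -0.0294 to 0.0420. The calls for the mean level ran from 16 to 27 and for the 0 h level from 0 to 4, with 4 without shControl 0 h replicate 2 and 0 without shControl 0 h replicate 1 or either shZNF598 0 h library. The calls for 4 to 10 h ran from 47 to 70 in shControl and 49 to 72 in shZNF598 cells. The medians ran from -0.0201 to 0.1324 for the 0 h level. For 0 to 4 h they ran from -1.71 to -1.45 with the control shRNA and from -1.69 to -1.58 with the ZNF598 shRNA. For 4 to 10 h they ran from 0.30 to 0.42 and from 0.31 to 0.42. The median difference between the shRNAs in the 4 to 10 h change ran from -0.0367 to 0.0772. Half-lives without a replicate came from ratios of scaled counts. Without replicate 1 of all groups, the ZNF598 shRNA had the shorter median half-life (2.343 against 2.475 h). Without replicate 2 it had the longer one (2.331 against 2.269 h). The shControl 0 h replicates agreed least among the groups up to 10 h (log2 Pearson's r = 0.978, elsewhere 0.990 to 0.996). Single genes changed sign in the slope difference of ZNF100 (-0.0421 to 0.0686, in 4 fits) and ZNF428 (-0.0851 to 0.015, in 1) and in the shControl slope of ZNF358 (-0.0309 to 0.0143, in 2) and ZNF780B (-0.0057 to 0.017, in 2).

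With the replicate number as a block, 107 genes were called for the slope with each shRNA, 22 for the mean level, and 140 and 135 for the 0 to 4 h change. Every comparison that called members kept its calls within a factor of 1.5. The labels give the replicates only a number. Of 45 pairs, 13 had a correlation over 0.1, and a shared batch was not tested.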
